A study of Mus musculus with 10 samples.

Results

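The 8 genes described here mark the enteric nervous system and were measured by RNA sequencing in the jejunum of WT and KSR23 mice. They are Elavl4 and Uchl1 (neurons in general), Ret (the receptor of the glial cell line-derived neurotrophic factor GDNF), Chat, Nos1 and Vip (transmitter systems), and Sox10 and Gfap (glia). The 8 genes were taken by symbol from the 24062 genes of the count data, and each had 5 or more counts in at least 1 library, the limit for testing.

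The enteric nervous system is a network of neurons and glia in the gut wall that drives motility, secretion and blood flow without input from the brain. It descends from neural crest cells that need SOX10 and the GDNF receptor RET to colonise the gut, and its neurons signal with acetylcholine, nitric oxide and peptides such as vasoactive intestinal peptide (VIP). In the gut, RET is also present on group 3 innate lymphoid cells, which respond to IL-23 and release IL-22.

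The libraries were made from the jejunum of C57BL/6 mice at postnatal day 5, 5 of WT and 5 of KSR23 mice, to ask how IL-23 affects the intestine of newborns. KSR23 mice carry, in ROSA26, a cassette of IL-23 that a floxed STOP sequence silences until cre removes it, and K14-cre, whose promoter is active in keratinocytes. WT mice are labelled wild type, and the labels name no agent given to either group. The labels do not tie libraries to single animals, so p-values measure the spread between these libraries.

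WT libraries held 25.5 to 32.0 M counts in genes and KSR23 libraries 31.2 to 60.9 M (means 29.0 ± 2.97 M and 43.2 ± 12.9 M, SD, n = 5 each; two-sided exact permutation p = 0.0238). Il12b, which encodes the p40 subunit of IL-23, had 0 to 5 counts in WT and 9 to 40 in KSR23, and Il22 had 0 to 1 and 137 to 329. Markers of jejunal enterocytes (Fabp2, Lct and others, 4 genes) summed to 62993 to 135394 CPM in WT and 27963 to 91698 CPM in KSR23. All 4 had negative log2 fold changes, and 2 fell (50% called, beside 18.5% of all genes tested). These were Fabp2 (-1.19, adjusted p = 0.00743) and Lct (-0.81, adjusted p = 0.0442, quasi-likelihood 0.0627). Among the fits without 1 library, Lct kept its call only without WT replicate 3 or KSR23 replicate 3 (adjusted p up to 0.152 otherwise). Markers of other gut regions (5 genes) summed to 0 to 0.65 CPM in WT and 0.412 to 1.77 CPM in KSR23. Of these 5, 1 was called (20%, beside 18.5% of all genes tested). It was the ileal bile acid transporter gene Slc10a2, which rose (0 to 9 counts in WT and 5 to 42 in KSR23, adjusted p = 0.0384, quasi-likelihood 0.0923). Its call was kept in 3 of the 10 fits without 1 library (those without WT replicate 1 or KSR23 replicates 1 or 3, adjusted p up to 0.136 otherwise). CPM are counts per 1 M of a library total scaled with trimmed mean of M-values factors. Replicates 4 and 5 of both groups took values inside the range of replicates 1 to 3 for most genes: they were the highest or lowest library for 8.90% to 18.7% of 9928 genes, where 40% would be given by exchangeable libraries. Libraries that lie between the others narrow the spread within a group, so p-values from all 10 libraries can be too small. Results with replicates 1 to 3 alone are therefore given as well. The libraries also differed in a slope on the GC content of transcripts. It was fitted to deviations of log2 CPM from the mean of the library's own group. A GC difference between the groups therefore does not enter it. The slopes ran from -0.36 (WT replicate 1) and -0.50 (KSR23 replicate 3) to 0.29 (KSR23 replicate 1) on the log2 scale per 10 points of GC. The slope was negative in WT replicates 1 and 5 and KSR23 replicates 3 and 5.

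The promoters of 3 genes are shown. Gfap and S100b are both glial genes and their means differed in opposite directions, though the difference of Gfap did not pass the tests described below. Vip had the most transcript per length of the 8 genes. Sequences are from RefSeq (build GRCm38.p6), 5′ to 3′ on the strand of the gene, from 250 bases before the RefSeq start to 10 bases after it. The gene coordinates given with each gene below are those of GENCODE, whose 5′ end is the same for Vip, 17 bases further downstream for S100b and 3712 bases further upstream for Gfap, so the Gfap window lies inside the GENCODE gene. Capitals mark matches to TTCNNNGAA, the consensus of STAT factors such as STAT3 that act below the IL-22 receptor, to TGACGTC, a cAMP response element core, or to the TATA motif TATAAA, each searched on both strands.
Gfap (chr11:102897191-102897450, minus strand): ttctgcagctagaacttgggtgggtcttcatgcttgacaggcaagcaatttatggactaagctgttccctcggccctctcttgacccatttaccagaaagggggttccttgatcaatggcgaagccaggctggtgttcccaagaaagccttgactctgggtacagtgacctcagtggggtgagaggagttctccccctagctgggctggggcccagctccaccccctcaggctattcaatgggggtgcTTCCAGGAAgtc
S100b (chr10:76253586-76253845, plus strand): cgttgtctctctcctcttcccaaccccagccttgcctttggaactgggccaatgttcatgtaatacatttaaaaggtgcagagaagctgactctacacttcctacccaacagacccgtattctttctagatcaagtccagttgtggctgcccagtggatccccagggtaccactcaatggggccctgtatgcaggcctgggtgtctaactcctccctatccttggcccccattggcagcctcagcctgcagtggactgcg
Vip (chr10:5638968-5639227, plus strand): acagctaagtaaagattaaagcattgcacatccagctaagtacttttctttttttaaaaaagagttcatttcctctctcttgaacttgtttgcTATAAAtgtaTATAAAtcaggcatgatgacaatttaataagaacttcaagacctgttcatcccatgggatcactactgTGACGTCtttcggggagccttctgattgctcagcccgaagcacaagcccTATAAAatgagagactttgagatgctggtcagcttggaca
The Gfap window held 1 STAT-type match, TTCCAGGAA, which began 2 bases before the start. TTCNNNGAA was found in 8.298% of the 32851 mouse promoter windows (300 bases, reaching 50 bases past the start), and among the 6 of the 8 genes with a window it was found only in Gfap. Vip held TGACGTC 79 bases before the start (present in 3.205% of windows) and TATAAA at 157, 147 and 30 bases before it (13.616% of windows). The S100b window held none of the 3 motifs. Whether any of these motifs has a part in the differences of the transcripts was not tested.

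Of the 8 genes, 1 differed between KSR23 and WT: Ret, which was higher in KSR23. That is 1 of 8, against 18.5% of all 17632 genes tested (edgeR likelihood ratio test, adjusted p under 0.05; 9.73% higher, 8.76% lower). The pan-neuronal genes Elavl4 and Uchl1 and the neuropeptide gene Vip had lower means in KSR23, and Chat, Nos1, Sox10 and Gfap had higher means, none past the test. With edgeR's quasi-likelihood test, which calls 15.4% of all genes (8.47% higher, 6.91% lower), Uchl1 was called too. Lower transcript of a neural gene in whole jejunum can come from fewer cells or from less RNA per cell, and these cannot be told apart in bulk tissue. The median log2 fold change (KSR23 over WT) was 0.79 over the 8 genes and 0.03 over all genes tested. The median of the 8 lies between Sox10 (0.75, SE 0.73) and Nos1 (0.83, SE 0.60), genes of few counts. It is no measure of a shared rise, since Elavl4, Uchl1 and Vip had negative values. In replicates 1 to 3 alone, none of the 8 genes was called by the likelihood ratio test (3.36% of all genes were) or by the quasi-likelihood test (0.812%). With the replicate number as a block, 12.5% of all genes and 0 of the 8 were called, and with the GC slope of the libraries as a covariate, chosen after the data were seen, 36.5% of all genes and 4 of the 8 (Uchl1, Ret, Vip and Gfap). That slope comes from deviations within the groups of these same libraries, so this fit does not correct a GC difference between the groups.

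**Figure D1:**
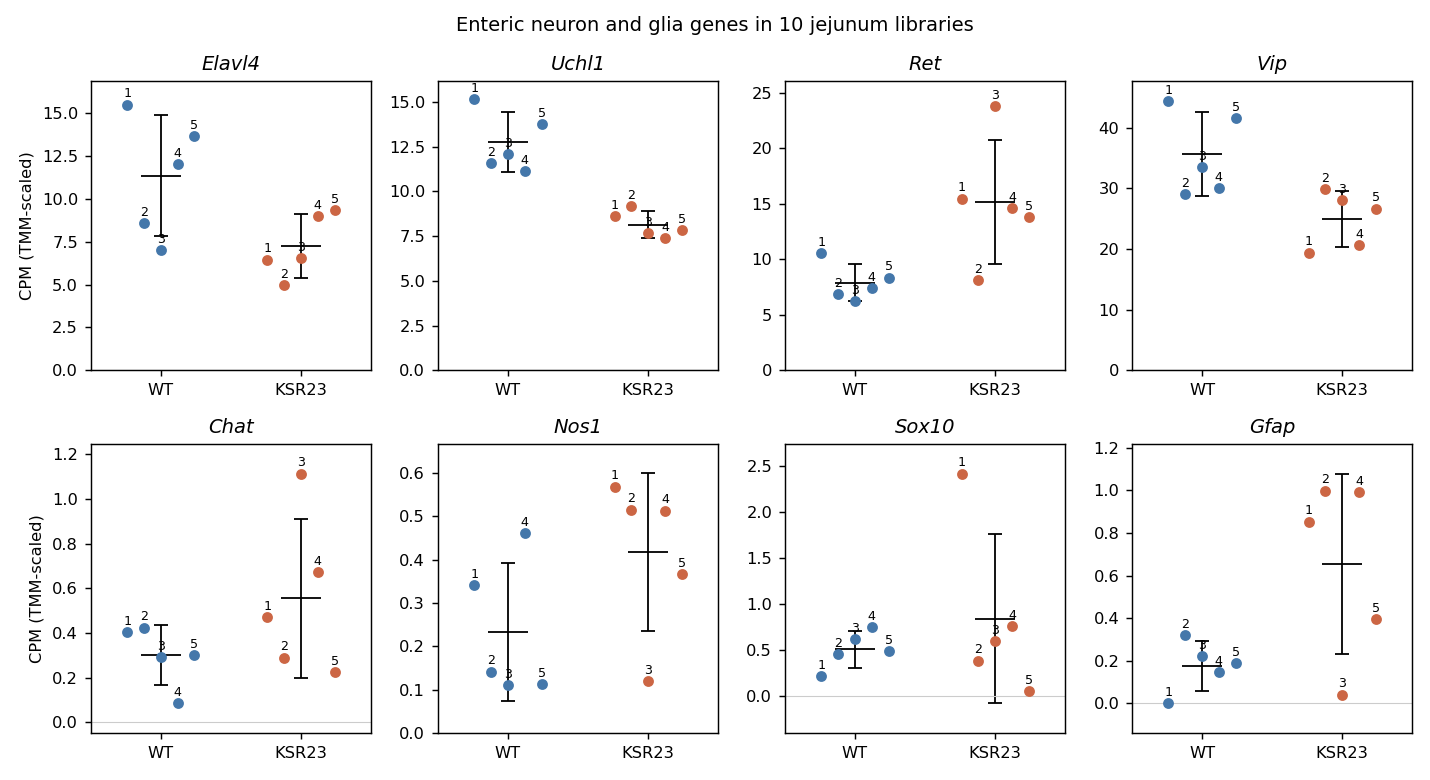
Expression of the 8 genes by library. Points are single libraries with the replicate number above, on a linear axis of CPM, and black lines are the mean ± SD (n = 5). Uchl1 was the one gene whose groups did not overlap, and Sox10 in KSR23 ranged from 0.0565 to 2.42 CPM.

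Per kilobase of exon, the levels in WT covered a wide range. Vip was highest at 10.5 ± 2.03 CPM per kb, and Uchl1 followed at 7.82 ± 1.03 (SD, n = 5 each), within reach of the SD of Vip. Elavl4 stood at 2.11 ± 0.653, Ret at 1.16 ± 0.248 and Sox10 at 0.166 ± 0.0653 CPM per kb. Chat (0.0641 ± 0.0284), Gfap (0.0413 ± 0.0276) and Nos1 (0.0209 ± 0.0143) were lowest, and the SD of Gfap overlapped those of Chat and Nos1. In KSR23 the order began with Vip (7.32 ± 1.37) and Uchl1 (4.99 ± 0.455), and Ret (2.24 ± 0.83) had a higher mean than Elavl4 (1.35 ± 0.344), with SDs that overlapped. Thus 4 of the 8 genes were read from few molecules: Chat, Nos1, Sox10 and Gfap reached no more than 26 counts in WT, where 3 counts correspond to 0.0864 to 0.113 CPM.

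Elavl4 encodes HuD, an RNA-binding protein of differentiating neurons (chr4:110203722-110351909, minus strand, mm10). It was measured at 15.5, 8.59, 7.01, 12.0 and 13.7 CPM in WT replicates 1 to 5 and at 6.46, 4.97, 6.56, 8.997 and 9.34 CPM in KSR23. The groups overlapped, and the mean was 11.4 ± 3.52 CPM in WT and 7.26 ± 1.85 CPM in KSR23. The log2 fold change was -0.64 (SE 0.33, adjusted p = 0.17).

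Uchl1 encodes the neuronal ubiquitin hydrolase known as PGP9.5, a standard histological label of enteric neurons (chr5:66676091-66687234, plus strand). Its values were 15.2, 11.6, 12.1, 11.1 and 13.8 CPM in WT and 8.63, 9.19, 7.67, 7.40 and 7.82 CPM in KSR23. Every KSR23 library lay below every WT library, which held for 6.99% of all genes tested (14.4% in either direction). The means were 12.8 ± 1.68 and 8.14 ± 0.743 CPM, at a log2 fold change of -0.65 that passed the quasi-likelihood test (adjusted p = 0.0404) and not the likelihood ratio test (SE 0.26, adjusted p = 0.065). The log2 fold change from replicates 1 to 3 was -0.57 (adjusted p = 0.731). The annotated antisense gene Uchl1os overlaps the 5′ end of Uchl1, and whether counting used strand is not given in the sources used here.

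The wider set of 16 neuron structure and identity genes held 2 that fell, 0 that rose and 14 that did not pass the test (12.5% called, beside 18.5% of all genes), with a median log2 fold change of -0.16. Both that fell belong to growing axons. Stmn2, a microtubule regulator of the growth cone, went from 21.9 to 33.3 CPM in WT to 13.8 to 19.5 CPM in KSR23 (means 25.8 ± 4.89 and 15.4 ± 2.32, log2 fold change -0.74, SE 0.27, adjusted p = 0.0386), without overlap. Gap43, an axon growth protein, ranged from 14.6 to 29.3 CPM in WT and from 7.54 to 17.3 CPM in KSR23 (means 23.2 ± 5.64 and 12.1 ± 3.48, log2 fold change -0.94, SE 0.32, adjusted p = 0.0236). Other abundant neuronal genes did not pass. The synaptic gene Snap25 was at 10.2 ± 2.83 CPM in WT and 8.86 ± 1.21 CPM in KSR23 (log2 fold change -0.21, adjusted p = 0.7), and the neuronal tubulin gene Tubb3 at 4.94 ± 0.772 and 4.56 ± 1.79 CPM (-0.11, adjusted p = 0.869). The calls of both depended on single libraries, while the log2 fold changes stayed between -0.84 and -0.64 for Stmn2 and between -1.10 and -0.76 for Gap43 when 1 library was left out. The call of Stmn2 held only without WT replicate 3 or KSR23 replicate 3, and that of Gap43 only without WT replicates 2 or 3 or KSR23 replicate 3, with adjusted p up to 0.119 otherwise.

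Summed over 18 pan-neuronal genes (Elavl4, Uchl1 and these 16), CPM was 126, 85.1, 88.7, 102 and 114 in WT and 76.9, 64.2, 72.7, 71.6 and 66.8 in KSR23. All KSR23 sums lay below all WT sums (103 ± 17.0 and 70.4 ± 5.01). Of the difference of 32.6 CPM between the means, the called genes Stmn2 and Gap43 made up 21.5 CPM and Elavl4 and Uchl1 8.71 CPM. The other 14 genes summed to 26.6 to 32.6 CPM in WT and 21.7 to 35.8 CPM in KSR23 and overlapped. Transcripts of smooth muscle, between whose layers many enteric neurons lie, differed between libraries as well: 8 smooth muscle genes summed to 3710, 1639, 2078, 2563 and 3409 CPM in WT and to 2303, 1705, 2171, 1983 and 1895 CPM in KSR23. Of the 8, Acta2 fell (1353 ± 448 to 795 ± 70.7 CPM, adjusted p = 0.0351, quasi-likelihood 0.0538), whereas Myh11, smooth muscle myosin, was at 231 ± 84.1 and 353 ± 34.3 CPM (log2 fold change 0.61, adjusted p = 0.142), with 4 of 5 KSR23 libraries above all WT libraries. The call of Acta2 was kept only without WT replicates 2 or 3 or KSR23 replicate 3 and lost in the other 7 fits without 1 library (adjusted p 0.0631 to 0.135). Per 1000 CPM of smooth muscle genes, the pan-neuronal sum was 33.9, 51.9, 42.7, 39.7 and 33.3 in WT and 33.4, 37.6, 33.5, 36.1 and 35.2 in KSR23. These ratios overlapped (40.3 ± 7.59 and 35.2 ± 1.80), but they depended on the muscle genes used. The actin genes Acta2 and Actg2 gave 62.8% to 77.8% of the muscle sum. With the 6 other muscle genes as the base, chosen after the data were seen, the pan-neuronal ratio was 150 to 174 in WT and 89.8 to 117 in KSR23, without overlap. The part of muscle content in the neuronal values was not tested.

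**Figure D2:**
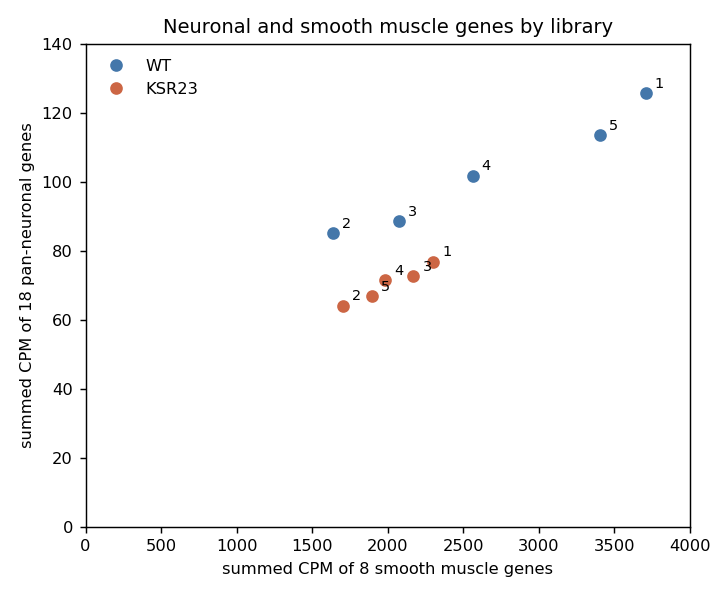
Summed CPM of 18 pan-neuronal genes (vertical axis) against summed CPM of 8 smooth muscle genes (horizontal axis), 1 point a library with its replicate number. WT replicates 1 and 5 had the highest sums on both axes, and the 5 KSR23 libraries lay at or below 76.9 CPM of neuronal genes.

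Ret encodes the receptor tyrosine kinase through which GDNF supports enteric neuron precursors (chr6:118151745-118197718, minus strand). WT replicates 1 to 5 gave 10.5, 6.82, 6.24, 7.43 and 8.34 CPM (170 to 340 counts), and KSR23 replicates 15.5, 8.12, 23.8, 14.6 and 13.8 CPM (up to 1087 counts). In KSR23, 4 of the 5 libraries lay above all WT libraries, and KSR23 replicate 2 lay below WT replicates 1 and 5. Ret rose 1.92-fold, from 7.87 ± 1.67 to 15.1 ± 5.61 CPM (log2 fold change 0.94, SE 0.33, adjusted p = 0.0315, quasi-likelihood 0.043). The direction was the same in replicates 1 to 3 alone (log2 fold change 1.04, adjusted p = 0.48).

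The call of Ret was lost in 7 of the 10 fits without 1 library. Leaving out WT replicate 2, 3, 4 or 5 gave adjusted p of 0.0626, 0.0938, 0.0701 and 0.0748, and leaving out KSR23 replicate 3, 4 or 5 gave 0.0762, 0.0501 and 0.0545. It was kept without WT replicate 1 or KSR23 replicates 1 or 2 (adjusted p = 0.0237, 0.0333 and 0.00364). The log2 fold change stayed between 0.72 and 1.15 over all 10 such fits. Per 1000 CPM of smooth muscle genes, Ret was at 3.07 ± 0.647 in WT (2.45 to 4.16) and 7.41 ± 2.24 in KSR23 (4.77 to 10.9), and these ratios did not overlap. They did not overlap either with the base of 6 muscle genes without the actins (11.01 to 13.2 and 14.8 to 36.6).

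None of the 11 genes of GDNF and endothelin signalling passed the likelihood ratio test (18.5% of all genes did), the quasi-likelihood test (15.4%) or DESeq2. In each of these, 1 of the 11, Ece1, had an unadjusted p under 0.05. Ece1, the enzyme that activates endothelins, was at 49.8 ± 12.97 CPM in WT and 81.1 ± 27.8 CPM in KSR23 (log2 fold change 0.70, SE 0.33, adjusted p = 0.126). It was called without KSR23 replicate 3 and with the GC slope as a covariate, and Nrtn, the ligand neurturin, was called without KSR23 replicate 1. Gdnf itself was at 0.173 to 0.566 CPM in WT and 0.254 to 0.548 CPM in KSR23 (log2 fold change 0.22, adjusted p = 0.8). Gfra1, the co-receptor that binds GDNF, gave 1.61 to 3.01 CPM in WT and 1.03 to 4.97 CPM in KSR23 (0.43, adjusted p = 0.544). Ednrb, the endothelin receptor needed for colonisation of the distal gut, was at 116 ± 29.3 and 137 ± 38.6 CPM (0.24, adjusted p = 0.649). The median over the 11 genes was 0.23.

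Because RET is also known on innate lymphoid cells, genes of those cells are given beside it, chosen after values were seen. Il7r, the IL-7 receptor of lymphoid cells, was at 0.403 to 1.34 CPM in WT and 0.85 to 2.91 CPM in KSR23 (log2 fold change 0.81, adjusted p = 0.22). Il23r, the IL-23 receptor, was at 0.115 to 0.404 and 0.124 to 1.31 CPM (1.34, adjusted p = 0.146). Ccr6, a chemokine receptor of these cells and of B cells, rose from 0.372 ± 0.129 to 1.14 ± 0.397 CPM (1.62, adjusted p = 0.00318) without overlap. Their part in the difference of Ret was not tested.

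Vip encodes the inhibitory and secretory peptide of many enteric neurons (chr10:5639218-5647617, plus strand). It gave 44.5, 29.1, 33.5, 30.1 and 41.6 CPM in WT and 19.4, 29.9, 28.0, 20.6 and 26.6 CPM in KSR23. WT replicate 2 lay below KSR23 replicate 2, so the groups overlapped (35.7 ± 6.92 and 24.9 ± 4.66 CPM, log2 fold change -0.52, SE 0.28, adjusted p = 0.193). Per 1000 CPM of smooth muscle genes Vip was at 14.0 ± 2.78 and 12.7 ± 3.50, and without the actin genes in the base at 55.2 ± 7.04 and 38.6 ± 12.8.

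Chat encodes choline acetyltransferase, which makes acetylcholine (chr14:32408203-32465989, minus strand). Its counts were 13, 12, 8, 3 and 8 in WT and 33, 9, 28, 38 and 8 in KSR23, or 0.0864 to 0.424 CPM and 0.226 to 1.11 CPM. The groups overlapped, and the log2 fold change of 0.87 (SE 0.58) did not pass (adjusted p = 0.322). The gene of the vesicular acetylcholine transporter, Slc18a3, lies within Chat on the same strand (chr14:32462438-32464850), so reads could be shared or lost between them. Slc18a3 had WT counts of 0, 63, 20, 47 and 14, against 231, 100, 2, 133 and 32 in KSR23 (log2 fold change 1.03, adjusted p = 0.498).

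Nos1 encodes the neuronal nitric oxide synthase of inhibitory motor neurons (chr5:117781032-117958840, plus strand). WT libraries held 11, 4, 3, 16 and 3 counts, KSR23 libraries 40, 16, 3, 29 and 13. The CPM ranges, 0.11 to 0.461 and 0.119 to 0.569, overlapped (log2 fold change 0.83, SE 0.60, adjusted p = 0.358). KSR23 replicates 3 and 5, whose GC slopes were negative, had the lowest Nos1 of their group, whereas WT replicate 1, with the most negative slope in WT, had the second highest Nos1 there (0.341 CPM).

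Among 18 tested genes of transmitters and neuropeptides other than these, 3 rose, 4 fell and 11 did not pass (38.9% called, beside 18.5% of all genes), with a median log2 fold change of 0.07. The 3 that rose were of acetylcholine and opioid signalling. Slc5a7, the choline transporter of cholinergic terminals, had WT counts of 28, 41, 10, 58 and 42, against 253, 69, 140, 179 and 190 in KSR23. All KSR23 libraries lay above all WT libraries (1.19 ± 0.554 and 3.98 ± 1.44 CPM, log2 fold change 1.74, SE 0.43, adjusted p = 0.00126), and in replicates 1 to 3 alone the value was 2.11 (adjusted p = 0.0747). Ache, acetylcholinesterase, went from 3.54 ± 2.69 to 14.1 ± 9.99 CPM (log2 fold change 1.996, SE 0.66, adjusted p = 0.0235, quasi-likelihood 0.0691). Penk, the enkephalin precursor, went from 4.42 ± 2.57 to 19.1 ± 12.3 CPM (2.11, SE 0.61, adjusted p = 0.00822). KSR23 replicate 3 stood apart: it had 1.27 CPM of Ache and 2.35 CPM of Penk, where the other 4 KSR23 libraries had at least 12.8 and 11.7 CPM. Without WT replicate 1, 3, 4 or 5 or KSR23 replicate 2 the call of Ache was lost (adjusted p 0.056 to 0.0947).

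The 4 transmitter genes that fell encode peptides of intrinsic and sensory neurons and a calcium-binding protein. Nmu, neuromedin U, which enteric neurons use to signal to innate lymphoid cells, had 1.10 to 2.20 CPM in WT and 0.437 to 0.832 CPM in KSR23, without overlap (log2 fold change -1.13, SE 0.36, adjusted p = 0.0124). Npy, neuropeptide Y, fell from 6.09 ± 1.74 to 2.89 ± 1.32 CPM (-1.09, adjusted p = 0.023), and Calcb, a calcitonin gene-related peptide, from 10.2 ± 2.86 to 4.86 ± 2.3 CPM (-1.07, adjusted p = 0.0298, quasi-likelihood 0.0509). Calb2, calretinin, fell from 10.8 ± 2.29 to 5.97 ± 1.27 CPM (-0.86, adjusted p = 0.0253). Tac1, the substance P precursor, was at 18.2 ± 3.29 and 27.6 ± 6.19 CPM (0.60, adjusted p = 0.133). Leaving out 1 library at a time ended the call of Npy, Calcb and Calb2 in 7 of 10 fits each (all but those without WT replicates 1 or 2 or KSR23 replicate 3 for Npy, WT replicates 2 or 3 or KSR23 replicate 3 for Calcb, and WT replicate 3 or KSR23 replicates 2 or 3 for Calb2) and that of Nmu without WT replicate 1 or 4 (adjusted p = 0.0649 and 0.055). The highest adjusted p was 0.0953 for Npy (without KSR23 replicate 4), 0.112 for Calcb (without WT replicate 5) and 0.111 for Calb2 (without KSR23 replicate 4).

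Sox10 encodes the transcription factor of neural crest and glia (chr15:79154908-79165240, minus strand). WT libraries held 7, 13, 17, 26 and 13 counts, KSR23 libraries 170, 12, 15, 43 and 2, or 0.217 to 0.749 CPM and 0.0565 to 2.42 CPM. A single library, KSR23 replicate 1, held 170 of the KSR23 counts, and KSR23 replicate 5 was below all WT libraries. The log2 fold change was 0.75 (SE 0.73, adjusted p = 0.529), and it was -0.11 (adjusted p = 0.931) without KSR23 replicate 1.

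Gfap encodes the intermediate filament of astrocytes and enteric glia (chr11:102887336-102900912, minus strand, inside the oppositely oriented lincRNA gene Gm26668). Its WT counts were 0, 9, 6, 5 and 5, and its KSR23 counts 60, 31, 1, 56 and 14. In KSR23, 4 of the 5 libraries (0.395 to 0.999 CPM) lay above all WT libraries (0 to 0.318 CPM), and KSR23 replicate 3 (0.0397 CPM) did not. The mean was 0.174 ± 0.117 CPM in WT and 0.656 ± 0.424 CPM in KSR23, 3.78 times as much (log2 fold change 1.92, SE 0.80, adjusted p = 0.0789, quasi-likelihood 0.144). Without KSR23 replicate 3 it was 2.22 (adjusted p = 0.00335). As with Nos1, the 2 lowest KSR23 values of Gfap were those of replicates 3 and 5, with negative GC slopes. WT replicate 1, also negative, had 0 counts, whereas WT replicate 5, negative too, had the middle value of WT (0.188 CPM). The part of the GC slopes in the difference of Gfap was not tested.

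Other glial genes split in direction. Of 10 tested, 1 rose, 2 fell and 7 did not pass (median log2 fold change -0.25). That is 30% called, beside 18.5% of all genes, and the same 3 did not overlap between groups (30%, beside 14.4%). S100b, a calcium-binding protein that labels enteric glia in sections, had WT counts of 1153, 1898, 1551, 1628 and 977, against 40, 20, 4, 38 and 33 in KSR23. No KSR23 library was above 0.932 CPM and no WT library below 35.7 CPM, so S100b fell 80.2-fold (48.7 ± 13.4 to 0.595 ± 0.28 CPM, log2 fold change -6.33, SE 0.38, adjusted p = 5.04e-40, quasi-likelihood 8.35e-06). It was the one gene of 67 tested in the 5 neural lists that was called in replicates 1 to 3 alone (-6.79, adjusted p = 3.21e-14). Per kilobase of exon, S100b was at 32.8 ± 9.06 CPM in WT, where Sox10 was at 0.166 ± 0.0653. Gpr37l1 (0.626) and Gfap (0.0413) were also far below S100b there, and Entpd2 (19.6) and Fabp7 (12.1) were nearer to it. Which cells of the jejunum made the transcripts of S100b, and of Fabp7 below, was not tested. S100b (chr10:76253853-76261159, plus strand) overlaps Dip2a on the opposite strand, which was at 5.97 ± 1.42 CPM in WT and 3.29 ± 1.81 CPM in KSR23 (log2 fold change -0.86, adjusted p = 0.133), the direction of S100b.

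Fabp7, a lipid-binding protein of glia, fell from 15.1 ± 2.94 to 4.55 ± 1.71 CPM without overlap (log2 fold change -1.73, SE 0.32, adjusted p = 6.35e-06). Erbb3, the neuregulin receptor of Schwann cells and glia that gut epithelium also makes, rose from 27.2 to 45.0 CPM in WT to 95.6 to 122 CPM in KSR23 (log2 fold change 1.43, SE 0.25, adjusted p = 1.22e-06). Among 5 epithelial genes, whose sums were 1233 to 3156 CPM in WT and 1851 to 4294 CPM in KSR23, Cdh1, E-cadherin, rose as well (219 ± 95.2 to 473 ± 180 CPM, adjusted p = 0.026, quasi-likelihood 0.0572). Of the 5, 4 had positive log2 fold changes and 1 a negative one, and Cdh1 alone was called (20%, beside 18.5% of all genes). The call of Cdh1 was lost without WT replicates 1, 3 or 5 or KSR23 replicates 2 or 4 (adjusted p 0.0592 to 0.0976), and the part of epithelial content in Erbb3 was not tested. Gpr37l1, a glial receptor, had 1.11 to 1.69 CPM in WT and 0.477 to 2.60 CPM in KSR23 (0.19, adjusted p = 0.823). Entpd2, an ectonucleotidase of glia and of other gut cells, was at 24.9 to 63.4 and 24.2 to 59.0 CPM (-0.04, adjusted p = 0.959). Among the 10 genes, S100b and Fabp7 were lower in every KSR23 library than in any WT library. Sox2, a further glial factor on the list, did not exceed 4 counts and was not tested.

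**Figure D3:**
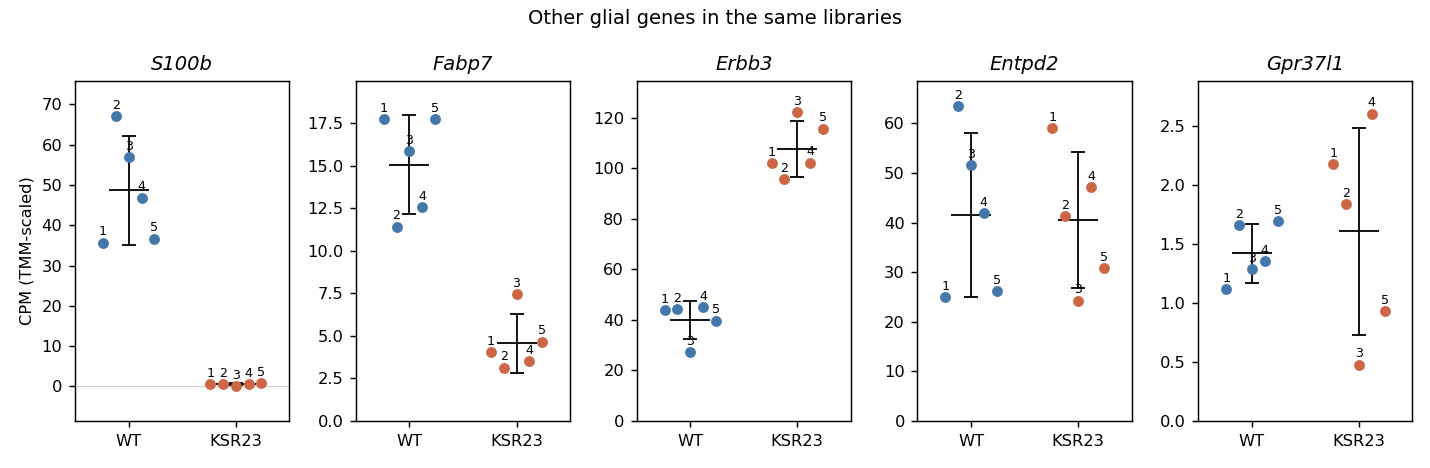
Expression of 5 other glial genes by library, in CPM on linear axes, with replicate numbers, and the mean ± SD (n = 5) as black lines. S100b lay below 1 CPM in all KSR23 libraries, Erbb3 and Fabp7 separated the groups in opposite directions, and Entpd2 and Gpr37l1 overlapped.

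Of 12 receptors and effectors of neural signals, 1 rose, 1 fell and 10 did not pass (median log2 fold change -0.11), a called share of 16.7% beside 18.5% of all genes. Vipr1, the VIP receptor of epithelium, was at 8.39, 12.7, 14.6, 11.1 and 9.12 CPM in WT and 85.0, 19.4, 27.9, 66.0 and 24.2 CPM in KSR23. The groups did not overlap (log2 fold change 1.99, SE 0.43, adjusted p = 0.000168), and the part of the epithelial content given beside Erbb3 was not tested here either. Vipr2, the other VIP receptor, gave 2.03 to 5.67 and 3.47 to 7.22 CPM (0.61, adjusted p = 0.242). Chrm3, the muscarinic acetylcholine receptor of muscle and glands, fell from 0.619 ± 0.233 to 0.158 ± 0.126 CPM without overlap (-1.85, SE 0.59, adjusted p = 0.0127, quasi-likelihood 0.0516). Without WT replicate 3 its adjusted p was 0.0581. Nmur1, the neuromedin U receptor, was at 13.3 to 18.9 and 8.66 to 15.7 CPM (-0.45, adjusted p = 0.285).

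Over the 5 neural lists, 14 of 67 tested genes were called, 5 higher and 9 lower (20.9%, beside 18.5% of all genes), and 8 did not overlap between groups (11.9%, beside 14.4%). Both shares are near those of all genes. The median log2 fold change was -0.04, beside 0.03 over all genes. The quasi-likelihood test called 11 of the 67, beside 15.4% of all genes. The 14 called genes had the same sign in replicates 1 to 3 alone, which are part of the same libraries.

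Genes whose profile over the 10 libraries was nearest to that of each of the 8 were ranked by the root mean square difference of centred log2 CPM among 12889 genes with a mean of 1 CPM or more. Elavl4 was nearest to Plxnc1 (0.184), Rims2 (0.198) and Ulk1 (0.214), of which Rims2 encodes a synaptic active zone protein. Uchl1 was nearest to Egfl7 (0.111), Cutc (0.116) and Tcta (0.117). Ret was nearest to Gbp7 (0.158), St3gal4 (0.163) and Arnt2 (0.178), and Vip to Calm2 (0.0877), Pdlim1 (0.108) and 1110004F10Rik (0.118). Chat, Nos1, Sox10 and Gfap had means under 1 CPM and were not compared. The 10 libraries share the group difference and the GC slopes, so likeness over them is a description.

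**Figure D4:**
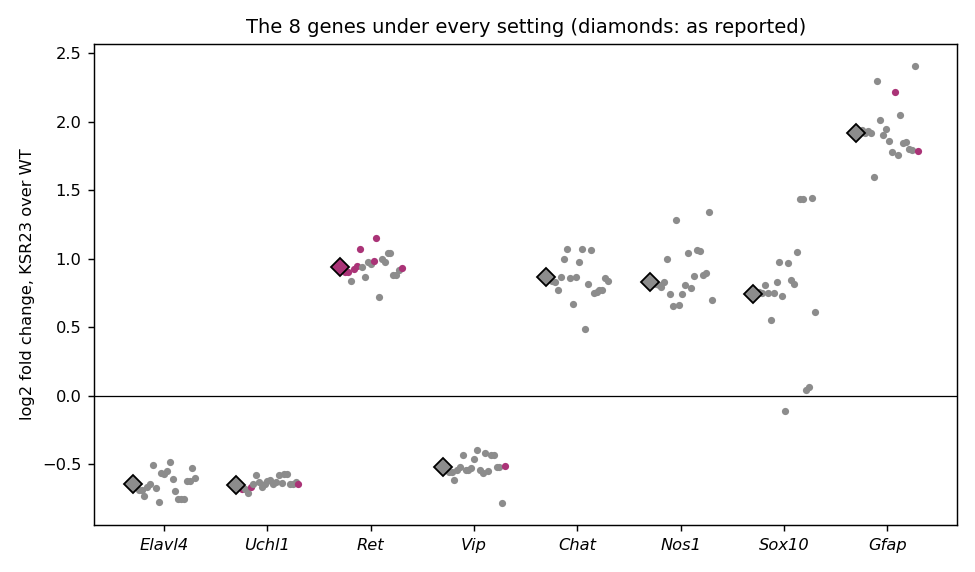
Log2 fold change of the 8 genes (vertical axis) as reported (diamonds) and under each alternative setting (dots); purple marks an adjusted p under 0.05. Sox10 is the one gene with a value on the other side of 0 (-0.11, without KSR23 replicate 1), and Elavl4, Chat, Nos1 and Sox10 have no purple point.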

How the data were processed

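Total RNA of jejunum was, per the labels, primed with oligo-dT, amplified with a low-input kit and sequenced as 75-base single-end reads. The deposited values were counts: the authors mapped reads to mm10 with TopHat2 2.1.0 and counted whole reads per gene with HTSeq 0.6.1p1, without normalization or pooling. Reads were not marked with molecular identifiers, so precision by depth covers counting error only. Multi-mapped reads entered no gene.

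The filter kept 17632 of 24062 genes, those that reached 5 counts in any 1 library. Counts of the 5 WT and 5 KSR23 libraries, grouped by title, were scaled by trimmed mean of M-values (TMM) and fitted with negative binomial models in edgeR 4.0.16 (R 4.3.3). The likelihood ratio test, the study's test, was the main test, and the quasi-likelihood F test was run as well. Benjamini-Hochberg adjustment covered all genes tested, with a threshold of 0.05. Fold changes are KSR23 over WT with model standard errors (SE). The common biological coefficient of variation was 0.498. The fits were tested on simulated data with 200 changed genes.

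The genes and lists were chosen with earlier results of these data known. The naming rule took each of the 8 genes, every called gene of a list and otherwise up to 4 of its most abundant genes, and the 3 nearest profiles. The exceptions, Il12b, Il22, Dip2a and the lymphoid genes, were chosen after values were seen, as were the GC covariate and the replicate block with the quasi-likelihood test. Other alternatives were DESeq2 1.42.0, size factors, filters, left-out libraries, a replicate block and the share of Y-linked counts. Positions are 1-based mm10 coordinates of GENCODE M21. A few genes of the lists are counted but not reported here by name.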

Additional observations from a re-analysis of the deposited data

Results flagged for a closer look

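In 5 of 44 groups of 5 libraries tested, 1 value stood apart from the other 4 by the gap to its neighbour (Dixon's ratio above 0.71), where chance gives about 1 in 20, or 2.2. On the log2 CPM scale, Chat was at -2.83 in WT replicate 4 (3 counts), with the next library at -1.52. Ache was at 0.41 in KSR23 replicate 3 (32 counts), with the next at 3.68. Stmn2 was at 4.29 in the same library (491 counts), with the next at 3.91, and Npy at 2.41 (132 counts), with the next at 1.34. Erbb3 was at 4.77 in WT replicate 3 (741 counts), with the next at 5.31. Of these 5 values, 3 come from KSR23 replicate 3, the library with the most negative GC slope (-0.50).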

How the results depend on the processing

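The replicate numbers did not pair the libraries: same-numbered deviations correlated at -0.55, 0.25, -0.46, 0.11 and 0.22 for replicates 1 to 5, and with a replicate block 2202 genes were called (12.5%). All genes called, 3261 as reported, numbered 579 in replicates 1 to 3 alone (140 by quasi-likelihood), 1184 with the replicate block by quasi-likelihood, 6444 with the GC slope as a covariate and 2370 to 3802 when 1 library was left out. Of the 8 genes, 1 was called as reported, 2 by quasi-likelihood, DESeq2 or with 5 counts in every library, 4 with the GC slope, and 0 with library totals alone, in replicates 1 to 3 by either test, with the replicate block by either test, or with the Y-linked share of counts in the model (0 to 1 without 1 library). Of the neural lists, 14 genes were called as reported, 1 in replicates 1 to 3 by either test, 8 with the replicate block (3 by quasi-likelihood), 7 with the Y-linked share, 19 with the GC slope and 7 to 15 without 1 library.

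Ret kept its direction in all 22 alternatives but not its call at 0.84 with library totals alone (adjusted p = 0.0605), 1.04 in replicates 1 to 3 (0.48, quasi-likelihood 0.464), 0.88 with the replicate block (0.136, quasi-likelihood 0.138) and 0.92 with the Y-linked share (0.123), and ranged from 0.72 to 1.15 without 1 library. Uchl1 was called at -0.65 by quasi-likelihood, -0.68 by DESeq2, -0.67 with 5 counts in every library and -0.64 with the GC slope. Vip (-0.51) and Gfap (1.79) were called with the GC slope, and Gfap also at 2.22 without KSR23 replicate 3. Without 1 library the ranges were -0.78 to -0.48 for Elavl4, -0.67 to -0.58 for Uchl1, 0.49 to 1.07 for Chat, 0.66 to 1.29 for Nos1, -0.57 to -0.39 for Vip, -0.11 to 1.05 for Sox10 and 1.60 to 2.30 for Gfap. Sox10 was reversed at -0.11 without KSR23 replicate 1. Uncalled genes that crossed 0 were Tubb3 (0.042 without KSR23 replicate 3 and 0.036 with the Y-linked share), Entpd2 (0.27 with the Y-linked share, -0.18 to 0.21 without 1 library), Gpr37l1 (-0.00331 and -0.00925 with the replicate block, -0.012 to 0.42 without 1 library), Prph (0.068 with the Y-linked share), Gal (0.14 with it, -0.27 to 0.043 without 1 library) and Ednrb (-0.17 with the Y-linked share). The cause was not tested. Chat, Nos1, Sox10, Gfap and S100b had no value with 5 counts in every library, since the filter removed them. The scalings moved the median of all genes by at most 0.06. Depth limits Chat, Nos1, Sox10, Gfap and Chrm3, at or near the floor of 3 counts in some libraries.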

Other observations

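Endocrine cells of the gut epithelium share genes with neurons. Of 6 enteroendocrine genes tested, 1 rose, 1 fell and 4 did not pass (33.3% called, beside 18.5% of all genes). Neurod1, a factor of endocrine differentiation, was at 0.929 to 3.74 CPM in WT and 2.54 to 8.61 CPM in KSR23 (log2 fold change 1.18, adjusted p = 0.0406, quasi-likelihood 0.0702). Its call was lost without WT replicates 1, 4 or 5 or KSR23 replicates 2, 4 or 5 (adjusted p 0.0716 to 0.118). Pax4, an early factor of several endocrine lineages, fell from 0.672 to 1.31 CPM in WT to 0.161 to 0.565 CPM in KSR23, without overlap (-1.56, adjusted p = 0.0053). The granin genes Chga and Chgb did not pass (adjusted p = 0.467 and 0.958).

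None of 5 tested tuft cell genes was called by either edgeR test or DESeq2. The same held for 3 genes of interstitial cells of Cajal, the pacemaker cells of gut muscle. Both called shares were 0%, beside 18.5% of the whole tested set (quasi-likelihood 15.4%). Lists of 5 and 3 genes are too short to tell 0% from such shares. By the likelihood ratio test, Pou2f3 of the 5 and Kit of the 3 had an unadjusted p under 0.05, and Kit was called without WT replicate 1 or KSR23 replicates 2 or 3 and with the Y-linked share or the GC slope as a covariate. Pou2f3 was called with the GC slope. Kit, the receptor that these pacemaker cells need, was at 6.09 to 13.6 CPM in WT and 10.8 to 21.7 CPM in KSR23 (0.83, adjusted p = 0.0579), and Ano1, their chloride channel, at 4.84 to 10.9 and 6.08 to 15.3 CPM (0.63, adjusted p = 0.216). Il25 and Tph2, listed for tuft cells and serotonergic neurons, had 0 counts in all 10 libraries. Summed markers of endothelium ran from 49.1 to 81.4 CPM in WT and 64.1 to 75.0 CPM in KSR23, and those of fibroblasts from 744 to 993 and 555 to 873 CPM, with overlap in both. Within these lists, Cdh5, the endothelial cadherin, fell from 5.15 ± 0.629 to 2.63 ± 0.635 CPM (-0.97, adjusted p = 0.00813), and Dcn, a matrix proteoglycan of fibroblasts, from 576 ± 132 to 269 ± 81.2 CPM (-1.10, adjusted p = 0.00315), both without overlap and both called by the quasi-likelihood test as well. The other genes of these lists, 2 of endothelium and 3 of fibroblasts, had positive log2 fold changes and were not called. The called shares were thus 33.3% and 25%, beside 18.5% of all genes. The same shares did not overlap between groups, beside 14.4% of all genes. The call of Cdh5 was lost without WT replicate 4 or KSR23 replicate 4 (adjusted p = 0.0573 and 0.0507).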
